A study of Homo sapiens with 6 samples.

Results

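Fibrillins, fibulins, elastin and the microfibril proteins that accompany them were examined in SKOV3 cells, a human line established from an ovarian carcinoma. The group holds 10 genes of the 60664 in the deposited count table, taken by name whatever their values: FBN1 and FBN2 (fibrillins), FBLN1, FBLN2, FBLN5, EFEMP1 and EFEMP2 (fibulins), ELN (elastin), and MFAP2 and MFAP5 (microfibril-associated glycoproteins). RNA came from 3 libraries titled shJUP, whose genotype label is JUP knockdown, and from 3 titled shNC, labelled WT and described as controls. Plakoglobin, the product of JUP, joins cadherins to the cytoskeleton at cell junctions. The labels call the 3 libraries of a group independent biological replicates. They give neither the sequence nor the number of hairpins, so an effect of a hairpin other than lower JUP cannot be told apart from one of lower JUP.

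Elastic fibres of tissues are built on microfibrils, bundles of fibrillin on which elastin is deposited and then crosslinked by lysyl oxidases. Fibulins bind both fibrillin and elastin and help in this assembly, and microfibrils also hold latent TGF-beta complexes in the matrix. Microfibrils without elastin exist as well, and the main cells known to make elastic fibres are fibroblasts and smooth muscle cells.

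The promoters of the fibrillin genes are shown here because the ratio of FBN1 to FBN2 did not overlap between the 2 groups. Each sequence is the 250 bases before the RefSeq start in GRCh38.p14, read 5′ to 3′ on the gene's strand. Capitals mark matches, on either strand, to any of 7 motifs. These were the GC box GGGCGG, the CCAAT box spelled by its name, the TATA box written TATAAA, the AP-1 site written TGACTCA, the TCF/LEF site written CTTTGAT, the STAT site written TTCNNNGAA and the TEAD site written GGAATG. No match overlapped another.
FBN1 promoter, chr15:48644971-48645220, minus strand: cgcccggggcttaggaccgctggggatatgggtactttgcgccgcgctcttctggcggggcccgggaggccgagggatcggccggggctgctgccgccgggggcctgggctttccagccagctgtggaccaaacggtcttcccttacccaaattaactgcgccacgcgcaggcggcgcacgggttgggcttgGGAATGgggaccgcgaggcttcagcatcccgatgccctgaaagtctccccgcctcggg
FBN2 promoter, chr5:128538246-128538495, minus strand: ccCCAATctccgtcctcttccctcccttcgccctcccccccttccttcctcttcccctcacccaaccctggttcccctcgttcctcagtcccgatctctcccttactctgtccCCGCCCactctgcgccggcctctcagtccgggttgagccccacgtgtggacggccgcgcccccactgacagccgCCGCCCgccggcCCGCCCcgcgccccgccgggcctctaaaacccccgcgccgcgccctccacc
FBN1 held 1 match, to GGAATG, which occurs in 11.9% of 35116 promoter windows of the same length. FBN2 held 3 matches to GGGCGG (42.6% of windows) and 1 to CCAAT (32%). The TATA box (10.7% of windows), AP-1 (4.2%), TCF/LEF (2.26%) and STAT (6.57%) motifs had no match in either window. Both windows were rich in G and C, 69.6% for FBN1 and 72.8% for FBN2 against a median of 58%, and each held 25 CpG pairs against a median of 11. A match is a run of letters and was not tested for binding. Windows were at hand for 7 of the 10 genes.

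Library totals ranged from 17456121 to 19279514 estimated counts. Levels are CPM (counts scaled to library size) after TMM scaling, given as mean ± SD with n = 3 per group. Where 3 values are listed, they are those of numbers 1, 2 and 3 in that order. The knockdown libraries are shJUP and the controls shNC, and a log2 fold change is shJUP over shNC from edgeR with its standard error (SE). JUP itself stood at 39.9, 93.6 and 24.6 CPM after knockdown, against 104, 133 and 101 CPM in controls. The knockdown libraries kept 35.4%, 83% and 21.9% of the control mean. The log2 fold change of JUP, -1.10 (SE 0.44), missed the threshold in edgeR (adjusted p = 0.47) and in DESeq2 (0.19), and passed in DESeq2 with the library number as a block (0.047). A marker is said to reach 1 CPM if it did so in at least 1 of the 6 libraries. Of 8 markers of ovarian carcinoma and epithelium 7 reached 1 CPM. PAX8 (253 to 393 CPM), KRT7 (94.1 to 231), KRT8 (494 to 839), KRT18 (191 to 301) and ERBB2 (2320 to 6907) were high in all 6 libraries. EPCAM (1.25 to 4.62 CPM) and WT1 (1.55 to 3.61) were low, and MUC16 had 0 to 12 counts. Of 10 fibroblast markers 7 reached 1 CPM, but PDGFRB, THY1 and FAP did not. Their summed level was 538 to 660 CPM in shJUP and 703 to 1113 CPM in shNC. S100A4 alone stood at 251 to 668 CPM and COL1A1 at 8.76 to 401 CPM, and without S100A4 the sums were 27.1 to 291 and 60.4 to 518 CPM. Of 7 smooth muscle markers 3 reached 1 CPM, with sums of 23 to 31 CPM in shJUP and 14 to 21.1 CPM in shNC. Both full sums differed between the groups without overlap, as did 17% of tested genes in either direction. The fibroblast sums overlapped without S100A4. Without TAGLN, the highest smooth muscle marker, the sums were 11.8 to 15.9 CPM in shJUP and 8.55 to 9.63 CPM in shNC. Of the 3 smooth muscle markers reaching 1 CPM, SMTN was higher in shJUP without overlap, whereas TAGLN and ACTA2 overlapped. The mesothelium (ITLN1 at 0), endothelium (EMCN at 0) and leukocyte (CD3E at 0) lists had 3, 5 and 1 of 7 markers reaching 1 CPM, and sums that overlapped. The highest sums in any library were 40, 14.8 and 36.4 CPM. Of the endothelium markers reaching 1 CPM, KDR and TIE1 were higher in shJUP without overlap and TEK lower, whereas PECAM1 and CDH5 overlapped. The part of all these cell type markers in the results on elastic fibre genes was not tested. In bulk RNA, fewer cells that express a gene and less of its RNA per cell cannot be told apart.

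Several microfibril genes were abundant, whereas elastin had a single count in all. Levels of different genes are compared per kilobase of the principal transcript. On that scale the control libraries ran from FBN1 (43.6 to 65.1 CPM per kb) and MFAP5 (29.3 to 67.9) through EFEMP1 (11 to 37.6), FBN2 (11.6 to 14.3), FBLN1 (4.1 to 8.4), FBLN2 (1.37 to 3.42), FBLN5 (1.04 to 1.69) and EFEMP2 (0.375 to 0.679) to MFAP2 (0.0432 to 0.379). FBN1 and MFAP5 overlapped in their range, as did MFAP5 and EFEMP1, EFEMP1 and FBN2, FBLN2 and FBLN5, and EFEMP2 and MFAP2. Within each control library, though, MFAP5 lay above EFEMP1, and EFEMP2 above MFAP2. No control library placed FBLN1 as high as FBN2 or FBLN2 as high as FBLN1. FBN1, MFAP5, EFEMP1 and FBN2 together made up 87.1% to 96.1% of the summed level of the 10 genes per kilobase in each library. The order of the means did not change when all exons of a gene were used as its length.

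**Figure D1:**
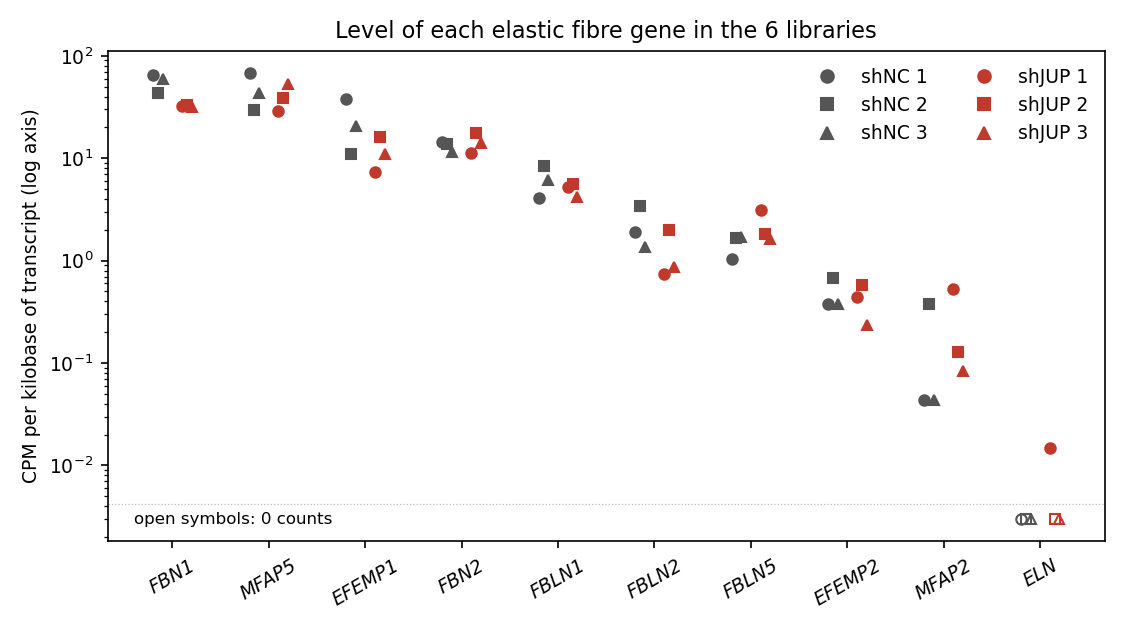
Level of each of the 10 genes in CPM per kilobase of transcript (log axis), 1 symbol per library, grey for shNC and red for shJUP, with circles, squares and triangles for numbers 1, 2 and 3. Open symbols below the dotted line are libraries with 0 counts. FBN1 and MFAP5 lie highest, ELN has 1 count in a single library, and only FBN1 has all 3 red symbols below all 3 grey ones.

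ELN (ENSG00000049540), the elastic core protein, had 1 count in shJUP 1 and 0 counts in each of the other libraries. A count of 0 carries an exact Poisson interval of 0 to 3.69 counts, counting error only. For scale, 3 counts are 0.159 to 0.166 CPM in those 5 libraries. MFAP2 (ENSG00000117122), a small glycoprotein that binds fibrillin, had 12, 3 and 2 counts after knockdown, against 1, 9 and 1 counts in controls. The groups overlapped for MFAP2, and its 12 counts in shJUP 1 carry an exact Poisson interval of 6.2 to 21 counts. Neither ELN nor MFAP2 passed the filter on low counts, so 8 of the 10 genes were tested.

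Across those 8 genes edgeR called none in either direction, and it called 0% of all 15867 tested genes. At an unadjusted p under 0.05 edgeR held 1 of the 8, in the lower direction, against 10% of all tested genes (4.87% lower), and limma-voom called none. DESeq2 called 1 of the 8, FBN1, lower in shJUP. It called 1.14% of the 15281 genes it adjusted, 0.51% lower and 0.628% higher. Blocking on library number, edgeR still called none of the 8 (0.0063% of all genes) and DESeq2 again FBN1 alone, at a background of 5.39% (2.98% lower). Without the filter edgeR called none of the 10, at a background of 0.0158% (0.0126% lower and 0.00316% higher). Leaving out both number-2 libraries, edgeR called FBN1 lower (background 0.308%, with 0.189% lower and 0.119% higher). DESeq2 then called FBN1 and EFEMP1 lower (background 4.79%, with 2.56% lower and 2.22% higher). For both genes shNC 2 was the lowest control and shJUP 2 the highest shJUP library, so leaving them out had to widen the difference. Of the 8, 6 had log2 fold changes below 0 and 2 above, with a median of -0.27 beside -0.01 over all genes, of which 51.4% lay below 0.

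FBN1 (ENSG00000166147) encodes fibrillin-1, the main fibrillin of adult tissues. It stood at 383, 393 and 375 CPM after knockdown, against 766, 513 and 701 CPM in controls. All knockdown libraries lay below all controls, as they did for 8.65% of tested genes (17% in either direction), and the 3 shJUP values were close together whereas the controls were not. The shJUP libraries held 58%, 59.6% and 56.9% of the control mean of FBN1. Within numbers, the ratio of knockdown to control was 0.50, 0.767 and 0.535 for FBN1 and 0.384, 0.705 and 0.243 for JUP. Number 2 had the ratio nearest to 1 for both genes, but FBN1 was nearly level across shJUP and lowest among controls in shNC 2. Whether FBN1 followed the level of JUP was not tested. The FBN1 groups averaged 384 ± 9 and 660 ± 131 CPM. The log2 fold change was -0.78 (SE 0.16), with an adjusted p of 0.33 in edgeR, 0.34 in limma-voom and 0.0041 in DESeq2. The replicate block gave -0.76 for FBN1, with an adjusted p of 0.11 in edgeR and 5.4e-05 in DESeq2. Leaving out number 2 in both groups gave FBN1 a log2 fold change of -0.94 in edgeR (adjusted p = 0.048) and an adjusted p of 5.1e-12 in DESeq2.

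FBN2 (ENSG00000138829), the fibrillin best known from developing tissues, showed no such separation. Its levels were 126, 197 and 157 CPM after knockdown, against 159, 155 and 129 CPM in controls. The groups overlapped, with the highest and the lowest FBN2 value both in shJUP. At 160 ± 36 against 148 ± 16 CPM the log2 fold change was 0.11 (SE 0.18, edgeR adjusted p = 0.85), and it turned to -0.07 without shJUP 2.

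The ratio of FBN1 to FBN2 counts, which does not depend on how libraries are scaled, was 3.05, 2 and 2.39 after knockdown, against 4.8, 3.31 and 5.43 in controls. The highest ratio in shJUP was below the lowest in the controls. FBN1 alone also separated the groups, as 8.65% of tested genes did in the lower direction, whereas FBN2 overlapped. No such share was worked out for ratios of other gene pairs. The groups averaged 2.48 ± 0.53 and 4.51 ± 1.1. The mean log2 ratio differed by -0.86. An exact permutation test of the mean log2 ratio over the 20 splits gave p = 0.1, the smallest value it can give. It therefore cannot decide whether the groups differ. This ratio was also chosen after its values were seen, so it is given as a description only.

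**Figure D2:**
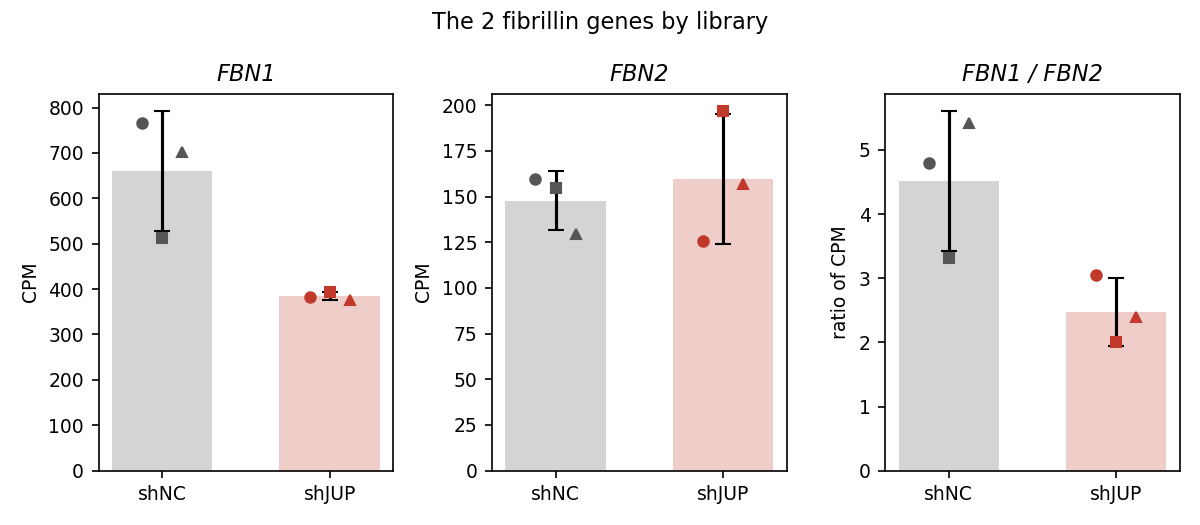
CPM of FBN1, CPM of FBN2 and their ratio, with bars for the mean of 3 libraries, error bars for the SD, and circles, squares and triangles for numbers 1, 2 and 3. FBN1 lies at 375 to 393 CPM in shJUP and 513 to 766 CPM in shNC, FBN2 overlaps between the groups, and the ratio is 2 to 3.05 in shJUP and 3.31 to 5.43 in shNC.

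MFAP5 (ENSG00000197614), a glycoprotein that decorates fibrillin microfibrils, was the second most abundant of the 10 genes per kilobase in the control means. In the shJUP means it ranked first, at 40 ± 12 CPM per kb beside 32.7 ± 0.76 for FBN1. Single libraries did not all follow the order of their group means. In shJUP 1 FBN1 was the higher of the 2 genes (32.6 against 28.9 CPM per kb). In shNC 1 MFAP5 was the higher (67.9 against 65.1). The CPM of MFAP5 were 82.1, 109 and 150 after knockdown, against 193, 83.5 and 123 in controls. The groups overlapped, since shNC 2 lay near the lowest shJUP value and shNC 1 above all others. The log2 fold change was -0.23 (SE 0.33, edgeR adjusted p = 0.84), and 0.14 without shNC 1.

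EFEMP1 (ENSG00000115380), which encodes fibulin-3, varied widely between libraries. It stood at 22.1, 48.3 and 33.2 CPM after knockdown, against 114, 33.4 and 62.1 CPM in controls. Control library 2 lay inside the shJUP range. The means were 34.5 ± 13 and 69.8 ± 41 CPM, for a log2 fold change of -1.01 (SE 0.45, adjusted p = 0.52 in edgeR and 0.29 in DESeq2). Within numbers, the EFEMP1 ratio of knockdown to control was 0.194, 1.45 and 0.534. Without both number-2 libraries the log2 fold change was -1.66, which passed in DESeq2 (adjusted p = 8.1e-07) and not in edgeR (0.092), and without shNC 1 it was -0.47.

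The fibulins FBLN1 and FBLN2, which bind basement membrane and elastic fibre proteins, were at low to moderate levels. FBLN2 (ENSG00000163520) stood at 3.18, 8.7 and 3.77 CPM after knockdown, against 8.23, 14.8 and 5.93 CPM in controls. The groups overlapped because shJUP 2 exceeded 2 of the controls, yet each shJUP library lay below the control of its own number, at ratios of 0.386, 0.589 and 0.636. The FBLN2 log2 fold change was -0.89 (SE 0.48, adjusted p = 0.58 in edgeR and 0.52 in DESeq2). It was -0.44 without shNC 2 and -1.47 without shJUP 2. With the replicate block it was -0.92, with an adjusted p of 0.12 in edgeR and 0.052 in DESeq2, neither past the threshold. FBLN1 (ENSG00000077942) was at 15.2, 16.1 and 12.1 CPM after knockdown, against 11.9, 24.3 and 17.6 CPM in controls. These groups overlapped, with shNC 1 the lowest and shNC 2 the highest of all 6 libraries (log2 -0.31, SE 0.27, edgeR adjusted p = 0.70). The FBLN1 value was -0.03 without shNC 2 and -0.54 without shNC 1.

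FBLN5 (ENSG00000140092) and EFEMP2 (ENSG00000172638, fibulin-4) encode the fibulins known to be needed for elastin assembly, and both were low. FBLN5 stood at 6.58, 3.89 and 3.45 CPM after knockdown, against 2.21, 3.56 and 3.59 CPM in controls. Most of its difference lay in the libraries of number 1, where the ratio was 2.98, beside 1.09 and 0.961 for numbers 2 and 3. The FBLN5 log2 fold change was 0.57 (SE 0.34, edgeR adjusted p = 0.61), and 0.24 without shJUP 1. EFEMP2 had 16, 22 and 9 counts after knockdown, against 14, 26 and 14 counts in controls. The EFEMP2 groups overlapped (log2 -0.20, SE 0.45, edgeR adjusted p = 0.91). Its lowest count, 9, carries an exact Poisson interval of 4.12 to 17.1 and its highest, 26, one of 17 to 38.1, which cover counting error only.

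The position of the number-2 libraries differed between genes. In the controls, shNC 2 had the highest level of FBLN1, FBLN2 and EFEMP2 and the lowest of FBN1, EFEMP1 and MFAP5. Among shJUP libraries, shJUP 2 was highest for 6 of the 8 tested genes, namely FBN1, FBN2, FBLN1, FBLN2, EFEMP1 and EFEMP2. Both number-2 libraries were thus highest in their group for FBLN1, FBLN2 and EFEMP2, and lay at opposite ends for FBN1 and EFEMP1. Only FBN1 and FBLN2 were lower than the control of the same number in all 3 numbers, none was higher in all 3, and the other 6 were mixed. What a number means is not given in the labels.

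**Figure D3:**
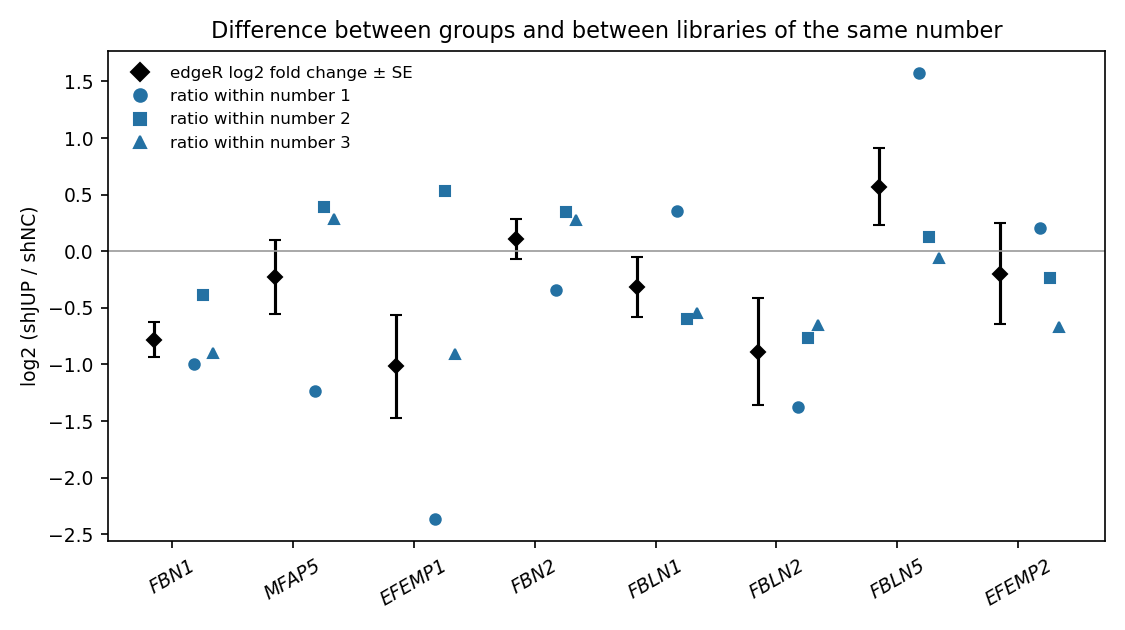
Black diamonds give the edgeR log2 fold change of each tested gene with its SE, and blue symbols the log2 ratio of shJUP to shNC within numbers 1, 2 and 3. FBN1 and FBLN2 have all 3 blue symbols below 0, whereas EFEMP1 and MFAP5 have number 2 above 0 and number 1 far below.

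The other genes of elastic fibre biology were read from 7 lists of 53 genes by role, of which 39 were tested. The edgeR test called 0 of them, as of all genes. At an unadjusted p under 0.05 it held 11 lower, where the background is 4.87%, and 2 higher. DESeq2 called 2, both lower, BGN and MMP2 (0.51% of all genes lower). With the replicate block edgeR called 1 lower (MMP7, at 0.0063% of all genes) and DESeq2 9 lower, against 2.98% of all genes lower and 2.41% higher in that DESeq2 fit. The median log2 fold change of the 39 was -0.36, and 32 lay below 0. In 13 of the 39 all shJUP libraries lay below all controls and in 2 above, where the background is 8.65% and 8.39%. The lists were chosen with earlier results of these data known, so these counts and background shares are a description only.

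Latent TGF-beta binding proteins dock TGF-beta on fibrillin. All 7 tested genes of that list lay below 0, beside 51.4% of all tested genes, and none passed edgeR or DESeq2. Those not named below had log2 fold changes of -0.45 to -0.08 with SEs of 0.12 to 0.48. A ligand among them turned to 0.46 in edgeR without both number-2 libraries. LTBP3 stood at 16.6, 19.5 and 10.1 CPM after knockdown, against 24.6, 107 and 24.5 CPM in controls, so control 2 stood far above the rest. Its log2 fold change was -1.76 (SE 0.61), and DESeq2 with the replicate block called it lower (adjusted p = 3.6e-04). Without both number-2 libraries LTBP3 had a log2 fold change of -0.87, with an adjusted p of 0.16 in edgeR and 0.037 in DESeq2. LTBP4, which also takes part in elastin assembly, was at 12.9, 42 and 21 CPM against 49.2, 48 and 42.3 CPM. The groups of LTBP4 did not overlap, though shJUP 2 lay just under the lowest control (log2 -0.88, SE 0.38), and it too was called with the block in DESeq2 (adjusted p = 0.012). TGFB1 had a log2 fold change of -0.39 (SE 0.19).

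Lysyl oxidases crosslink elastin and collagen. LOX stood at 90.3, 192 and 75.1 CPM after knockdown, against 233, 256 and 263 CPM in controls, without overlap. Its log2 fold change of -1.07 (SE 0.33) missed the threshold in edgeR (adjusted p = 0.42), in DESeq2 (0.060) and in DESeq2 with the replicate block (0.052). Without both number-2 libraries LOX passed in edgeR (0.042). LOXL2 (log2 -0.32, SE 0.27) and LOXL1 (-0.36, SE 0.34) overlapped between the groups, and the other 2 genes of the list were not tested.

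Among proteoglycans and scaffold proteins that bind fibrillin, BGN (biglycan) had 0 counts in all 3 shJUP libraries and 45, 88 and 30 counts in shNC 1 to 3. Against a floor of 3 counts over the shJUP group BGN was at least 54.5-fold lower, from a pooled control level of 2.95 CPM. That bound covers counting error in shJUP only and takes the control level as exact, though controls ran from 30 to 88 counts. The adjusted p of BGN was 0.32 in edgeR and 1.3e-06 in DESeq2. It was 0.074 in edgeR with the replicate block, where DESeq2 gave none. VCAN (versican) stood at 784, 1033 and 697 CPM against 1159, 1666 and 1172 CPM. Its groups did not overlap (log2 -0.67, SE 0.20, edgeR adjusted p = 0.41), and DESeq2 called it with the block (6.7e-08). DCN (decorin) was highest in both number-2 libraries, at 5.87 and 7.54 CPM, and at 0.553 to 2.45 CPM elsewhere.

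Integrins with the alpha-V chain bind fibrillin-1 and latent TGF-beta. ITGAV stood at 262, 251 and 243 CPM after knockdown, against 434, 288 and 403 CPM in controls. As with FBN1, the 3 shJUP values were close together and shNC 2 was the lowest control. Its log2 fold change was -0.57 (SE 0.16), with an adjusted p of 0.40 in edgeR, 0.10 in DESeq2 and 0.0069 in DESeq2 with the block. ITGB5 (log2 -0.29, SE 0.12) and ITGB3 (-0.67, SE 0.29) did not overlap between the groups either. ITGB3 was called with the block in DESeq2 (adjusted p = 0.017).

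Of the proteases that can cut elastin or fibrillin, MMP2 stood at 94.7, 133 and 91.2 CPM after knockdown, against 245, 285 and 271 CPM in controls. It had the smallest edgeR p of the 39 genes (log2 -1.33, SE 0.17, adjusted p = 0.28 in edgeR and 1.3e-08 in DESeq2). CTSL, a lysosomal cathepsin, was at 224 ± 14 against 183 ± 17 CPM, with all shJUP libraries above all controls (log2 0.29, SE 0.11, edgeR adjusted p = 0.46). CTSS overlapped between the groups (log2 -1.02, SE 0.40) and was called lower with the block in DESeq2 (adjusted p = 0.0022). MMP7 (matrilysin), at 0.502, 15.9 and 0.956 CPM against 3.98, 106 and 5.28 CPM, had an adjusted p of 0.60 in edgeR and 0.034 in edgeR with the replicate block. It is named after its values were seen, as the single gene called in that fit.

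Of the genes that process or organise fibrillin, FURIN, the convertase that cleaves profibrillin, was at 81.6, 104 and 71 CPM after knockdown, against 137, 104 and 130 CPM in controls. The highest FURIN value after knockdown and the lowest control, both of number 2, were equal to 3 digits, and the log2 fold change was -0.53 (SE 0.17, edgeR adjusted p = 0.43). ADAMTSL4 (log2 -0.75, SE 0.30) and ADAMTSL5 (0.49, SE 0.31) were at 1.01 to 2.39 CPM. Among paralogs and interface proteins, EMILIN2 was at 8.57 ± 2.4 against 5.14 ± 1.3 CPM, above all controls in each shJUP library (log2 0.74, SE 0.28, edgeR adjusted p = 0.46). HMCN1 (hemicentin-1) was at 0.614, 3.25 and 1.33 CPM against 2.93, 15.3 and 2.88 CPM, with an adjusted p of 0.48 in edgeR and 0.0010 in DESeq2 with the block. MMRN2 had a log2 fold change of -0.24 (SE 0.46).

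**Figure D4:**
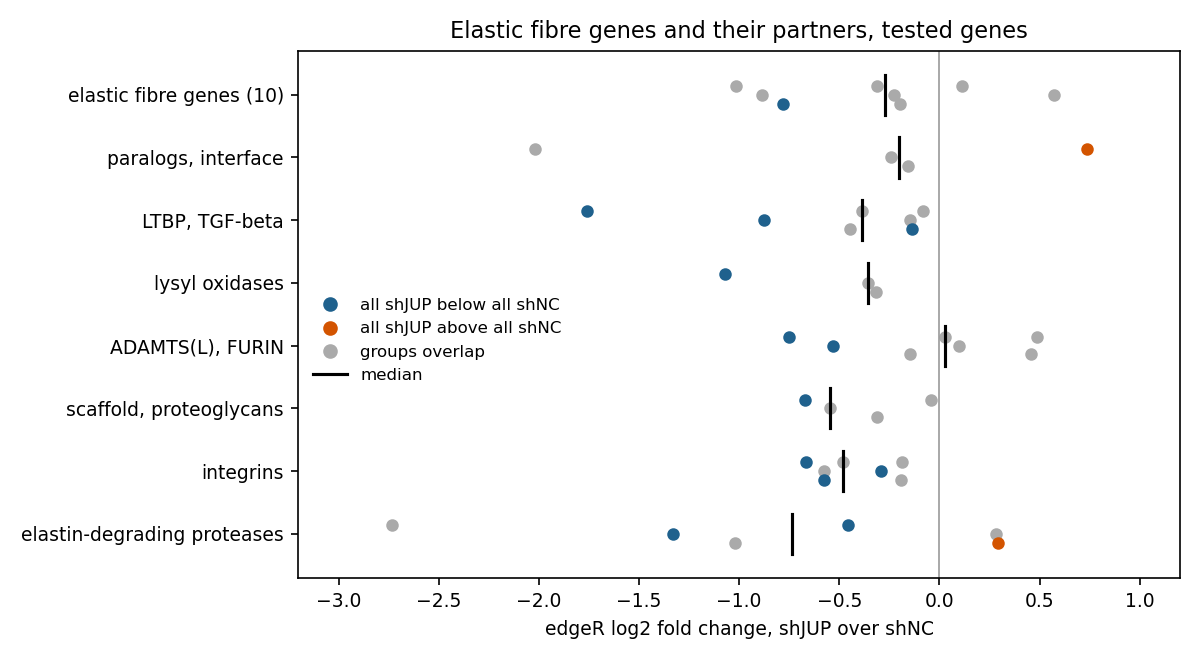
The edgeR log2 fold change of each tested gene, by role, with a bar for the median of each list. Blue points have all shJUP libraries below all controls, orange points all above, and grey points overlap. BGN, at 0 counts in shJUP, is left out of the points because its fitted value is no bound, but counts in the median. Most points lie left of 0 (32 of the 39 partner genes, BGN included), and EMILIN2 and CTSL are the orange ones.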

How the data were processed

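The authors deposited 1 table of estimated counts (expected counts) per Ensembl gene for 6 libraries, which they made before any scaling between libraries. The submitters' processing notes list, without roles, STAR 2.7.9a, RSEM 1.3.3, edgeR 3.32.1 and DESeq2 1.26.0. Per the labels' protocols, oligo(dT) beads selected the RNA and Cuffdiff gave FPKM values, which are not used here. The sources used here do not state the genome build, annotation or strand setting. Exons of EFEMP2, ELN, FBN2 and MFAP5 share 11 to 165 bases with a gene on the opposite strand in GENCODE 29, and without strand such reads cannot be told apart.

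Of 60695 rows, 31 without a gene ID were left out, and 60463 of 60664 IDs matched a symbol. Counts were rounded. The main fit was edgeR 4.0.16 (R 4.3.3) with filterByExpr (15867 genes), TMM scaling and the two-sided quasi-likelihood test, with Benjamini-Hochberg adjustment over all tested genes and a threshold of 0.05. The SE was taken as |log2 fold change| divided by √F. DESeq2 1.42.0 on all genes and limma-voom 3.58.1 were alternatives. Lengths are those of APPRIS principal transcripts in GENCODE 29.

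Replicate numbers come from the labels. As a check of pairing, each library's deviation from its group mean was correlated across genes with that of its namesake, giving 0.16, 0.56 and 0.25 for numbers 1, 2 and 3. All exceed 0.1, so fits with the number as a block are shown beside the main fit, which had no block. However, shJUP 3 resembled shNC 1 more closely (0.44) and shJUP 1 resembled shNC 3 (0.19). For shNC 3 the best match was its namesake (0.25), but the reverse did not hold. Only in number 2 did both libraries correlate best with each other, so pairing by number is not settled.

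All 10 genes and JUP are named, with up to 3 tested genes of smallest edgeR p from each role list, and MMP7. The genes and lists were chosen with earlier results of these data known.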

Additional observations from a re-analysis of the deposited data

How the results depend on the processing

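Of the 8 tested genes, 0 were called by edgeR under 3 other scalings, without the filter, with a filter of 1 CPM in 3 libraries, with the replicate block and with each library left out (range 0 to 0), and by limma-voom (EFEMP2 did not pass the 1 CPM filter). The count was 1 with DESeq2, 1 with DESeq2 and the replicate block, 1 without both number-2 libraries in edgeR (FBN1 in each) and 2 without them in DESeq2 (FBN1 and EFEMP1). Partner genes called were 0 in the main edgeR test and with each library left out (0 to 0), 2 without the filter, 2 with DESeq2, 1 with the replicate block in edgeR and 9 with it in DESeq2, and 2 and 12 without both number-2 libraries in edgeR and DESeq2. Over all genes the counts were 0, with 0 to 0 when each library was left out, 5 without the filter, 174 with DESeq2, 1 and 699 with the replicate block in edgeR and DESeq2, and 49 and 644 without both number-2 libraries. JUP passed the threshold under DESeq2 when blocked (-1.30) or when number 2 was dropped (-1.66), and was -1.80 to -0.75 with each library left out. FBN1 stayed below 0 in every fit, at -0.93 to -0.66 with each library left out, and the log2 FBN1 to FBN2 ratio differed by -1.06 to -0.71.

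Directions that turned were those of genes with no call. FBN2 was -0.066 without shJUP 2, and leaving out number 2 in both groups gave -0.021 in edgeR and -0.023 in DESeq2 (range over single libraries left out -0.066 to 0.26). EFEMP2 was 0.09 without shJUP 3 and 0.14 without shNC 2 (range -0.51 to 0.14), and MFAP5 was 0.14 without shNC 1 (range -0.48 to 0.14). The cause was not tested. ELN and MFAP2, at 0 to 12 counts, were too low to be tested in the main fit. DESeq2 gave no adjusted p for EFEMP2 with the block, nor for BGN there.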
